A study of Mus musculus with 29 samples.

Results

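The genes described here are the cytochrome P450 genes that remain after certain names and name groups are set aside. They were taken from the array's own annotation as every non-control probe whose gene name begins with Cyp and a digit, leaving out Cyp51, Cyp2b10, Cyp7a1, Cyp7b1, Cyp8b1, Cyp27a1 and all names of the Cyp2a, Cyp2c, Cyp3a and Cyp4a groups. This gave 58 genes with 68 probes, out of 31693 genes and 39429 probes on the array, and set aside 40 other Cyp names. Of the 58 genes, 44 were bright enough on enough arrays to be tested, among 19509 genes tested in all.

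RNA came from whole livers of wild-type male C57BL/6N mice, 3 months old when the experiment began, that ate a corn-oil high-fat diet for 7 weeks. The control group (cHF, 7 livers) received that diet alone. The cHF+R group (6 livers) also received a low dose of rosiglitazone, a drug that activates PPAR-gamma. In the cHF+PC group (8 livers) about 7% of the dietary lipid was exchanged for a concentrate of the omega-3 fatty acids EPA and DHA carried on phospholipids rich in phosphatidylcholine, and the cHF+PC+R group (8 livers) received both. The high-fat diet was common to all 4 groups, and no group on a standard diet was analysed here. Each liver was labelled with Cy5 and hybridised with a Cy3-labelled pool of all samples, so values are given as log2 of liver over pool, and 0 means the same signal as the pool.

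Cytochrome P450 enzymes are haem proteins of the endoplasmic reticulum or the mitochondria that insert an oxygen atom into lipids, steroids, vitamins and drugs. Those of the endoplasmic reticulum receive their electrons from NADPH through P450 oxidoreductase, encoded by Por, with help from cytochrome b5. In mouse liver several are made at different levels by males and females under the control of growth hormone, and several lie mainly around the central vein.

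The arrays measured these genes unevenly. On 28 of the arrays between 55.0% and 62.5% of the spots were well above background in Cy5, and on cHF liver 4 the share was 80.8%. Of the 58 members 14 were not tested, and 13 of these were well above background on at most 2 of the 29 arrays: Cyp1b1, Cyp2b19, Cyp2b23, Cyp2j11-ps, Cyp11a1, Cyp11b1, Cyp11b2, Cyp19a1, Cyp24a1, Cyp26c1, Cyp27b1, Cyp4f41-ps and Cyp4x1. They include Cyp11a1, which starts steroid synthesis in the steroid-making glands, and Cyp27b1 and Cyp24a1, which activate and break down vitamin D. Cyp2d40 was well above background on all 29 arrays but kept a value on 16. No Cy5 spot of any member was saturated.

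With rosiglitazone alone, 8 of the 9 tested Cyp2d genes fell and 1 member outside that group, Cyp4f16, rose, so that 9 of the 44 members passed the test in cHF+R against cHF (limma, adjusted p under 0.05), against 3.12% of all genes. By direction, 8 members fell against 1.09% of all genes, and 1 rose against 2.02%. The median change was -0.08 over the members and 0.01 over all genes. When the omega-3 phospholipids were given as well, the same 8 Cyp2d genes were higher than with rosiglitazone alone: 14 of the 44 members rose and 4 fell in cHF+PC+R against cHF+R, against 3.3% and 3.83% of all genes and 7.13% in either direction, with a member median of 0.21. The omega-3 phospholipids alone raised 2 of 44 members, Cyp4f15 and Cyp4f17, and lowered none, against 1.81% of all genes higher, 2.11% lower and 3.93% in either direction, with a member median of 0.04. In the authors' deposited value table the same 2 and 7 more rose with the phospholipids (Cyp1a2, Cyp20a1, Cyp2d12, Cyp2d22, Cyp2e1, Cyp4f13 and Cyp4v3) and Cyp2r1 fell. There 43 members were tested, and 1090 of all 18578 genes were called, 43.9% of them higher. The combination against cHF raised 5 members and lowered 4, against 4.77% of all genes higher, 4.76% lower and 9.52% in either direction, with a member median of 0.00. These comparisons share groups (cHF in 3 of them, cHF+R in 2), so their values are set side by side and not counted as separate evidence. In bulk RNA, fewer cells of a type and less RNA per cell cannot be told apart.

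**Figure D1:**
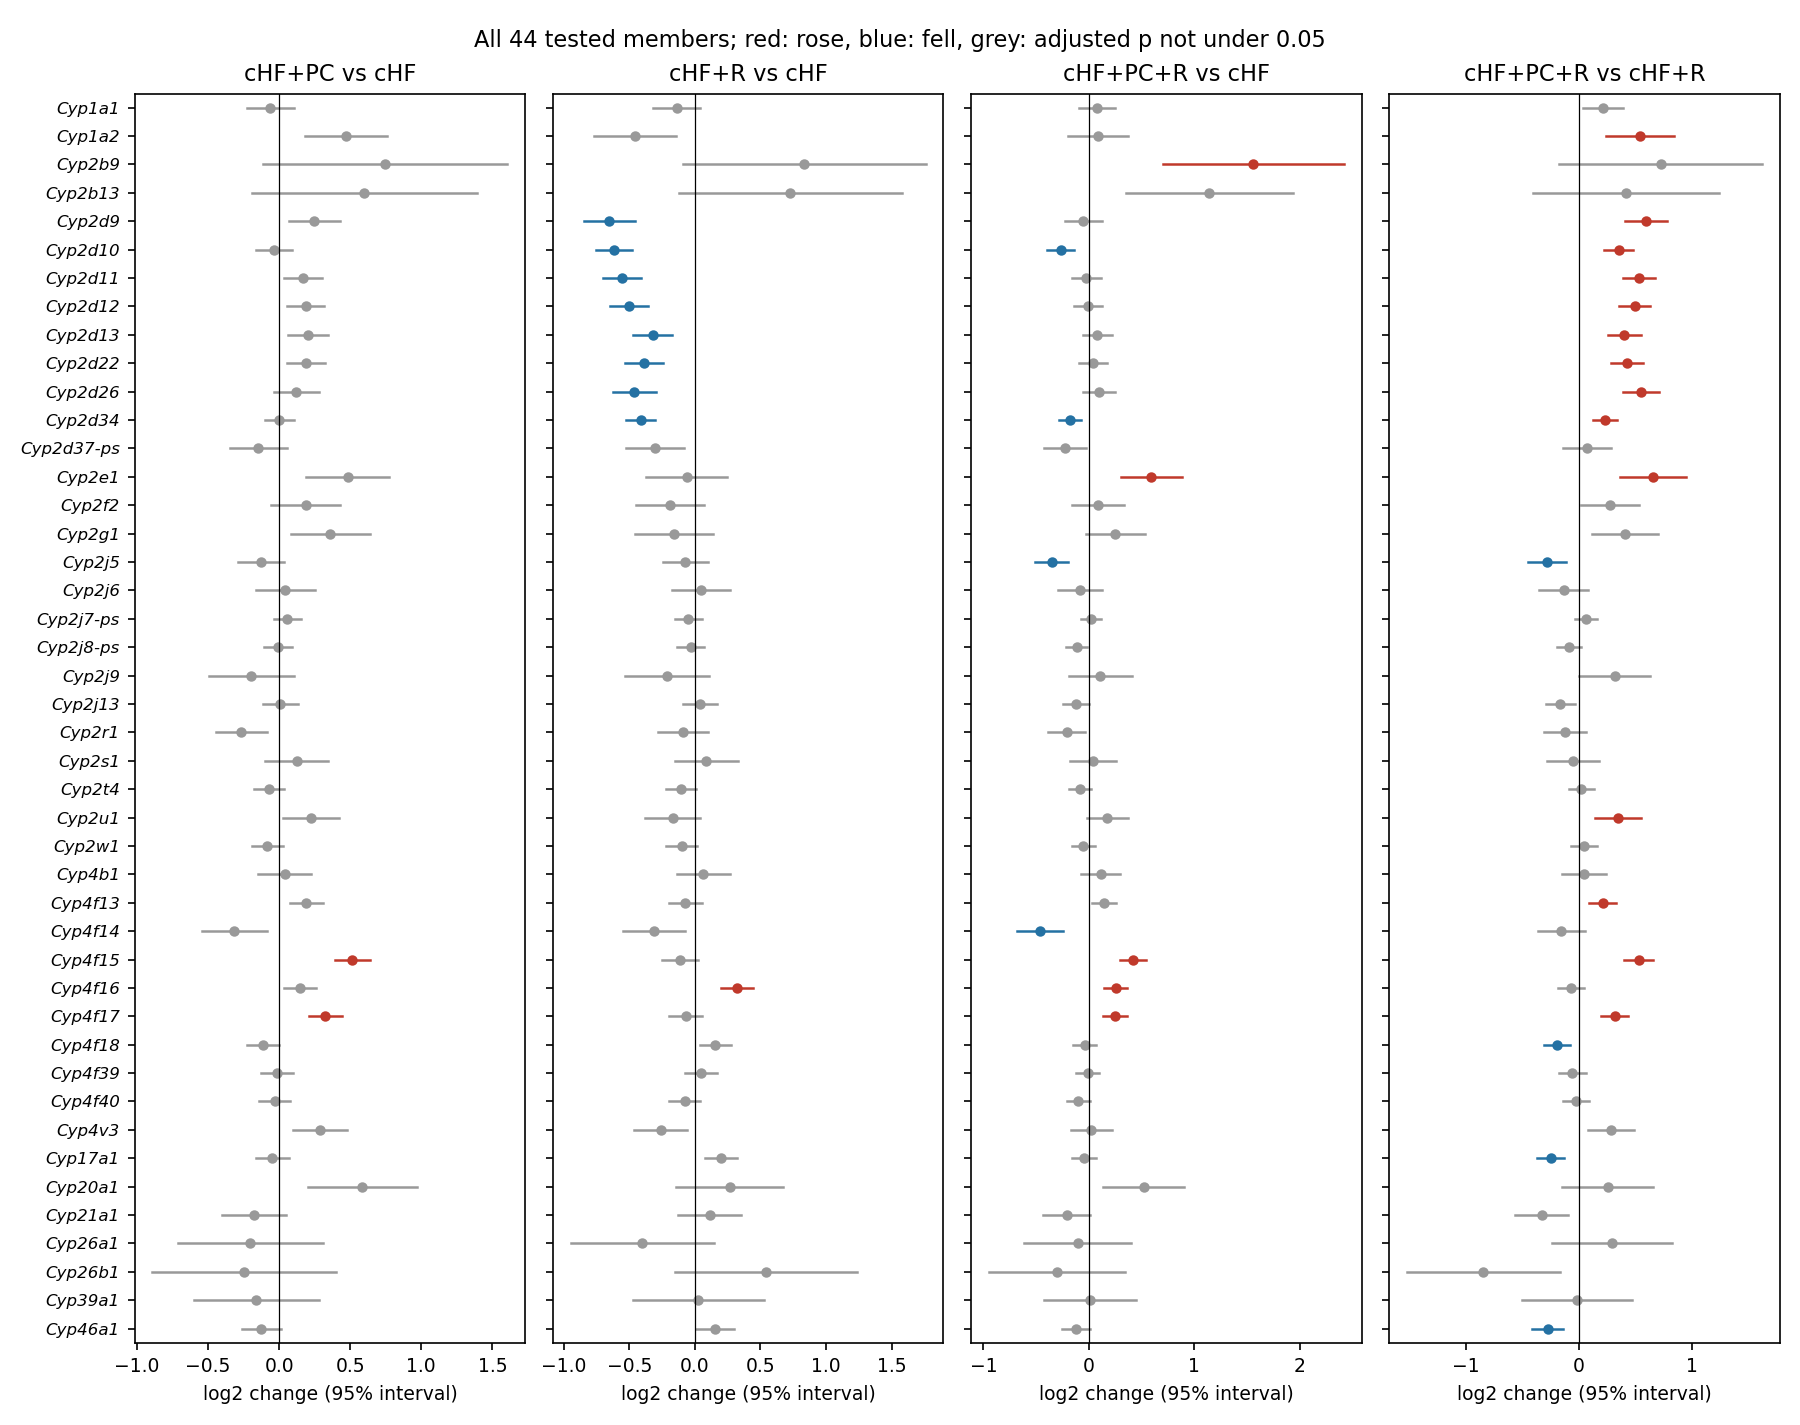
Log2 change of each of the 44 tested members (points) with its 95% interval (lines) in 4 comparisons, one panel each, with genes that rose in red, genes that fell in blue and the rest in grey. The 8 blue Cyp2d points of cHF+R against cHF are the same genes as the 8 red Cyp2d points of cHF+PC+R against cHF+R.

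The Cyp2d enzymes are the mouse relatives of human CYP2D6, which oxidises many basic drugs. Mice carry several copies side by side, and Cyp2d9, a testosterone hydroxylase, is made mainly by males. The probes of the 9 tested Cyp2d genes lie within 1 stretch of chromosome 15, from 82204377 to 82620634 in mm9. Since these neighbours moved together, their promoters are shown first, for the 4 Cyp2d genes that changed and had an entry in the RefSeq-based promoter table (GRCm38.p6, 250 bases before to 50 after the start, strand of the gene). Their places are chr15:82452127-82452426 (Cyp2d9, plus strand), chr15:82407145-82407444 (Cyp2d10, minus strand), chr15:82393973-82394272 (Cyp2d11, minus strand) and chr15:82794196-82794495 (Cyp2d26, minus strand). Capitals mark, on the strand shown only, the longest run of letters common to them and to Cyp2d40.
Cyp2d9: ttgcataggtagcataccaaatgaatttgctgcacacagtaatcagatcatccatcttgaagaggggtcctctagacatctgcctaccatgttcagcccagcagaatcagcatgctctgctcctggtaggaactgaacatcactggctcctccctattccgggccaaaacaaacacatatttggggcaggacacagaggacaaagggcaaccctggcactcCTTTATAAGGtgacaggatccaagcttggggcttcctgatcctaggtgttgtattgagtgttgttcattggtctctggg
Cyp2d10: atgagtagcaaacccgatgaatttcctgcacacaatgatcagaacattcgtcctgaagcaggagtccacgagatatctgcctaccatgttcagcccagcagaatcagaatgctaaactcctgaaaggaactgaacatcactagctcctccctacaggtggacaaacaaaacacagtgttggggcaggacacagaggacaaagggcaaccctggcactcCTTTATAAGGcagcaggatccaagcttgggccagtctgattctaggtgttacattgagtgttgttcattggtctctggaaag
Cyp2d11: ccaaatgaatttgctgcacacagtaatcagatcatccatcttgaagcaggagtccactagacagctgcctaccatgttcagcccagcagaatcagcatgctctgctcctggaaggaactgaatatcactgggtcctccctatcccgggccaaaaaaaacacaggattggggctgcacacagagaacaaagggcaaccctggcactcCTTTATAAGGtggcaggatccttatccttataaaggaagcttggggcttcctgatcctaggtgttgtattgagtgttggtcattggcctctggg
Cyp2d26: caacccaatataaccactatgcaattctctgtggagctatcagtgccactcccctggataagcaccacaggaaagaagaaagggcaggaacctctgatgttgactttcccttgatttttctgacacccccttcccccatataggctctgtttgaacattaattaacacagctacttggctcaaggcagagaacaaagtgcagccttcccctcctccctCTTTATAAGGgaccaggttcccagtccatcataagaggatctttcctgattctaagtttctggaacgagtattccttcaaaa

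The run in capitals, CTTTATAAGG, begins 29 bases before the start in Cyp2d9, 32 in Cyp2d10, 44 in Cyp2d11 and 32 in Cyp2d26. In Cyp2d11 a further copy, reading on the opposite strand, lies between the marked copy and the start and is left in small letters. The run was chosen after the sequences were compared. On either strand it is in 32 of 32544 distinct promoters (0.0983%), and among the 41 members with an entry Cyp26a1 is the only one outside the Cyp2d group that holds it. The letters TATAAA, the usual core of a TATA box, overlap it on the opposite strand and are far more common: they are in 13.6% of all promoters and in 12 of 41 members. Cyp2d9, Cyp2d10 and Cyp2d11 share a longer run of 32 letters around it, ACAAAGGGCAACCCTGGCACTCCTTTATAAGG, which no other promoter in the table holds. Over the 300 bases the identity was 84.5% between Cyp2d9 and Cyp2d11, 83.3% between Cyp2d9 and Cyp2d10 and 77.5% between Cyp2d10 and Cyp2d11. Cyp2d26 was 53.6% to 55.7% identical to these 3. The letters AGGTCA, the core bound by many nuclear receptors, were in 16.2% of all promoters and in 10 of the 41 members, of which Cyp2d40 was the only Cyp2d gene. The spaced repeat AGGTCANAGGTCA, the form bound by PPAR with RXR, was in 13 promoters (0.0399%), none of a member. These matches describe the letters of these windows.

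Cyp2d9 showed the widest span. Its values in cHF ran from -0.36 to -0.03 with a median of -0.10, and in cHF+R from -1.19 to -0.45 with a median of -0.70. In cHF+PC they ran from -0.23 to 0.27 (median 0.17), and in cHF+PC+R from -0.39 to -0.09 (median -0.17). Every cHF+R liver was below every liver of the other groups. Cyp2d9 was 1.57-fold lower in cHF+R than in cHF (log2 change -0.65 ± 0.0935, SE, adjusted p = 6.42e-05, limma), and on all 5 slides that carried both groups. In cHF+PC+R it was higher than in cHF+R by 0.60 ± 0.0907 (adjusted p = 0.000116), on 6 of 6 slides. Against cHF, the combination differed by -0.05, with a 95% interval from -0.23 to 0.13.

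Cyp2d10 ranged from 0.21 to 0.40 in 6 cHF livers (median 0.28) and from -0.55 to -0.18 in cHF+R (median -0.26). It ranged from 0.09 to 0.42 in cHF+PC (median 0.31) and from -0.11 to 0.16 in cHF+PC+R (median 0.05). The cHF+PC+R livers therefore lay between cHF+R and cHF without overlapping either. The change was -0.62 ± 0.0667 with rosiglitazone (1.54-fold, adjusted p = 1.8e-06) and 0.35 ± 0.0624 between cHF+PC+R and cHF+R (adjusted p = 0.000669). The combination remained below cHF by 0.26 (log2 change -0.26 ± 0.0624, adjusted p = 0.00727).

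Cyp2d11 fell with rosiglitazone from a median of 0.22 (0.14 to 0.44) to -0.28 (-0.55 to -0.11). The omega-3 groups had medians of 0.44 without rosiglitazone (0.27 to 0.57) and 0.29 with it (-0.04 to 0.38). Its change was -0.55 ± 0.0715 in cHF+R against cHF (adjusted p = 2.06e-05) and 0.53 ± 0.0694 in cHF+PC+R against cHF+R (adjusted p = 1.68e-05). All 6 cHF+R livers were below the livers of the other groups.

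Cyp2d26 was measured in all livers but 1, of cHF+PC. Its median was 0.31 in cHF (0.08 to 0.44), -0.21 in cHF+R (-0.28 to -0.07), 0.35 in cHF+PC (0.03 to 0.79) and 0.36 in cHF+PC+R (0.16 to 0.56). It is the Cyp2d gene farthest along the stretch, and its groups were also separate between cHF+R and the rest. It fell by 0.46 on the log2 scale in cHF+R (adjusted p = 0.000664) and was 0.55 higher in cHF+PC+R than in cHF+R (adjusted p = 4.52e-05).

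Cyp2d12, Cyp2d13, Cyp2d22 and Cyp2d34 were also lowest in cHF+R. Their medians in cHF+R were -0.55, -0.43, -0.37 and -0.16, against -0.07, -0.12, 0.01 and 0.23 in cHF. The changes with rosiglitazone were -0.50 (adjusted p = 5.03e-05), -0.32 (0.0098), -0.39 (0.00102) and -0.41 (2.21e-05). Between cHF+PC+R and cHF+R they were 0.50 (adjusted p = 3.02e-05), 0.40 (0.000589), 0.43 (0.000201) and 0.24 (0.00549). Cyp2d13 was the one gene of the 8 whose cHF and cHF+R livers overlapped: its highest cHF+R liver was at -0.34 and its lowest cHF liver at -0.40. Cyp2d34, like Cyp2d10, was still below cHF in the combination (-0.18 ± 0.0499, adjusted p = 0.0235), a call lost without cHF liver 4 or 5 (adjusted p up to 0.0545) and when its probes were averaged. Its other probe changed in the same direction with rosiglitazone (-0.62, adjusted p = 0.000788) and between cHF+PC+R and cHF+R (0.51, adjusted p = 0.00319).

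The ninth gene, the pseudogene Cyp2d37-ps, did not pass in any comparison. It was at 0.11 in cHF (median, -0.24 to 0.32), -0.22 in cHF+R (-0.42 to 0.03), -0.06 in cHF+PC (-0.37 to 0.28) and -0.14 in cHF+PC+R (-0.32 to 0.10). The difference was -0.30 ± 0.107 with rosiglitazone (adjusted p = 0.13) and 0.08 ± 0.104 between cHF+PC+R and cHF+R (adjusted p = 0.711, 95% interval -0.13 to 0.29).

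**Figure D2:**
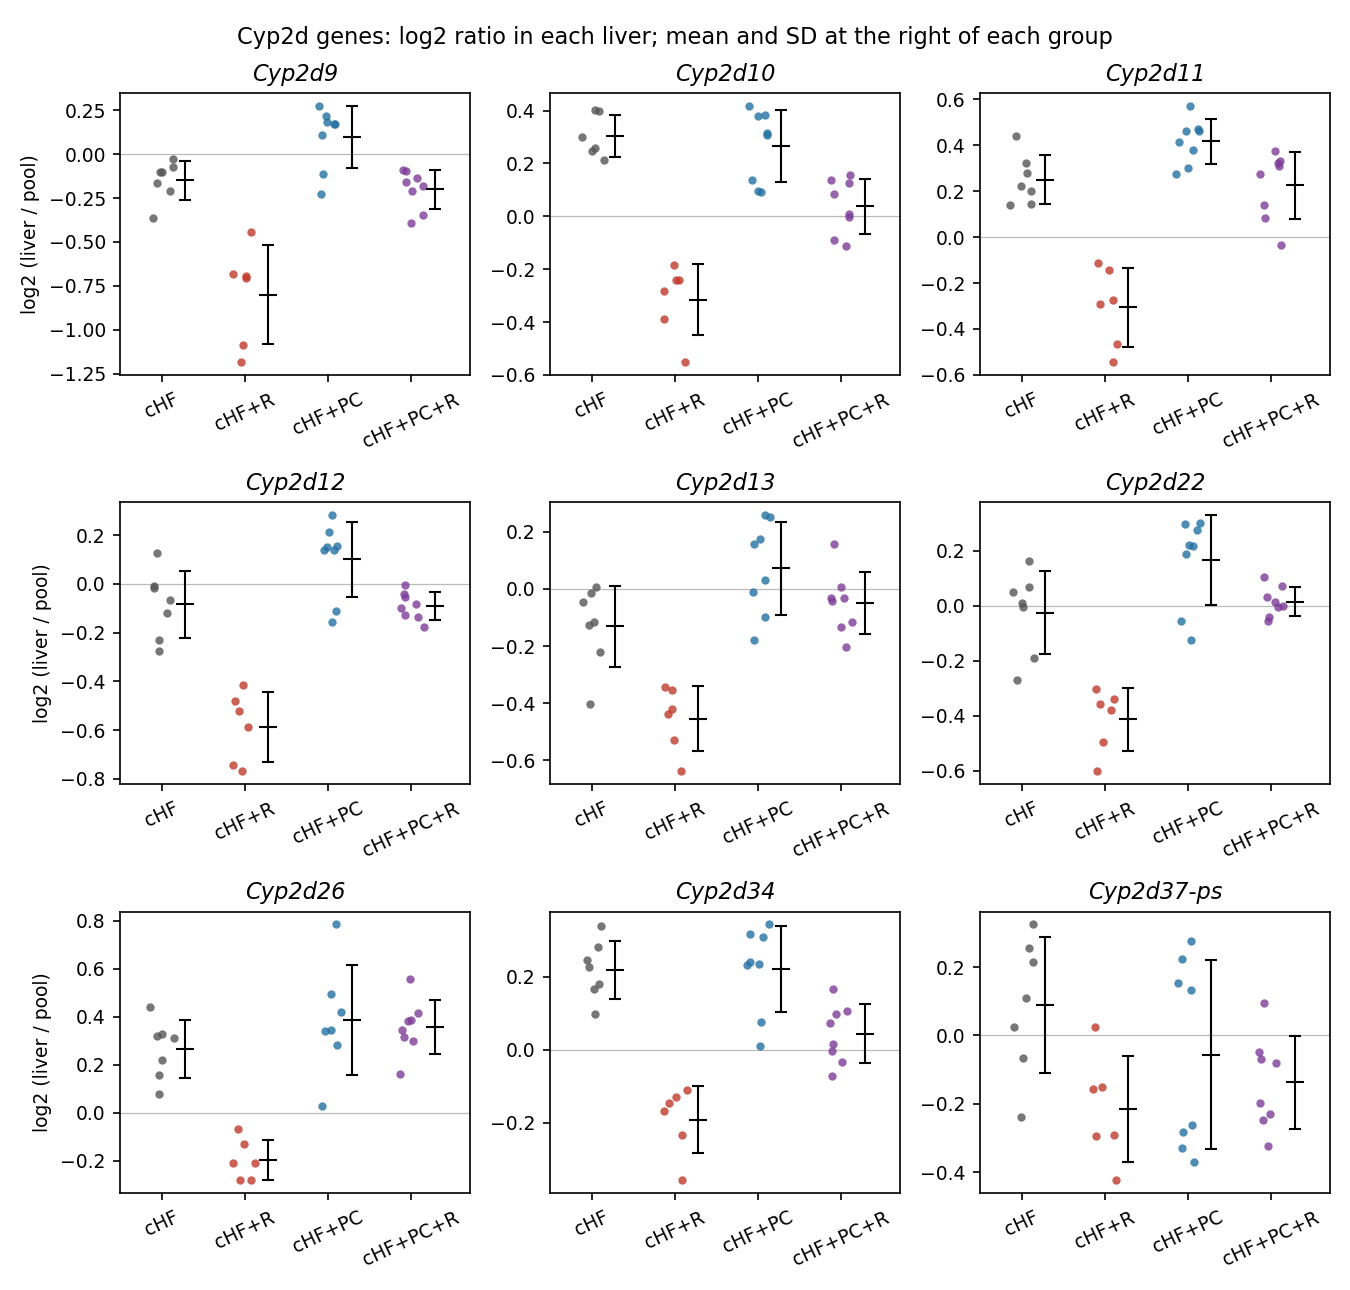
Log2 ratio of each liver to the pool (points) for the 9 tested Cyp2d genes, with the group mean and SD beside each group. In 7 of the 9 panels every cHF+R liver lies below every cHF liver; Cyp2d13 and Cyp2d37-ps overlap.

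Non-overlap between 2 groups was uncommon on the array. For cHF+R against all other groups together, no share of all genes was counted. In cHF+R against cHF, 8 members had all treated livers below all control livers (7 Cyp2d genes and Cyp4f14, whose change did not pass), against 0.851% of all genes, and 1 had all of them above (Cyp4f16), against 1.27%. With the phospholipids alone 2 members had all treated livers above cHF (Cyp4f15 and Cyp4f17), against 0.651% of all genes. In the combination against cHF 2 were above (Cyp4f15 and Cyp4f16) and 2 below (Cyp2d10 and Cyp4f14), against 1.14% and 1.32%. In cHF+PC+R against cHF+R, 9 members had all livers above (the 8 Cyp2d genes and Cyp4f15), against 0.918% of all genes. No Cyp2d gene passed with the omega-3 phospholipids alone, where their changes ran from -0.15 to 0.25 (in the authors' deposited value table Cyp2d12 and Cyp2d22 rose, by 0.23 and 0.21), or between cHF+PC+R and cHF+PC, where all 9 were negative (-0.30 to -0.03). For Cyp2d9 the latter was -0.30 ± 0.084 (adjusted p = 0.186), with a 95% interval from -0.47 to -0.13. The test of whether rosiglitazone changed a gene differently with and without the omega-3 phospholipids, the interaction term, called 0 of the 44 members and 0% of all genes with limma. At an unadjusted p under 0.05 it held 12 of the 44 members and 1294 of the 19509 genes. The 9 Cyp2d estimates of this term were all positive, from 0.20 to 0.43, and the one with the smallest p was Cyp2d10 (0.39 ± 0.0882, adjusted p = 0.231). A smaller fall of Cyp2d genes under rosiglitazone with the phospholipids is therefore not shown by this test.

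The genes around the Cyp2d stretch gave a local comparison. Within 200000 bases, 11 tested genes that are not members had a probe, and none passed in cHF+R against cHF. One of them is a further Cyp2d copy inside the stretch, the pseudogene Cyp2d38-ps, which the array names differently and the selection by name therefore missed. It stood at 0.20 in cHF+R against cHF (adjusted p = 0.686) and -0.21 in cHF+PC+R against cHF+R (adjusted p = 0.562), opposite in sign to the members, and passed in neither. One passed in cHF+PC+R against cHF+R: Septin3, a cytoskeletal GTPase, at 0.38 (adjusted p = 0.00345), with -0.27 in cHF+R against cHF (adjusted p = 0.0929). The 11 probes of the Cyp2d members share at most 17 bases in a row, and that pair is the Cyp2d9 probe and the Cyp2d34 probe not used here. Binding of a probe to the transcript of another Cyp2d copy was not tested.

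**Figure D3:**
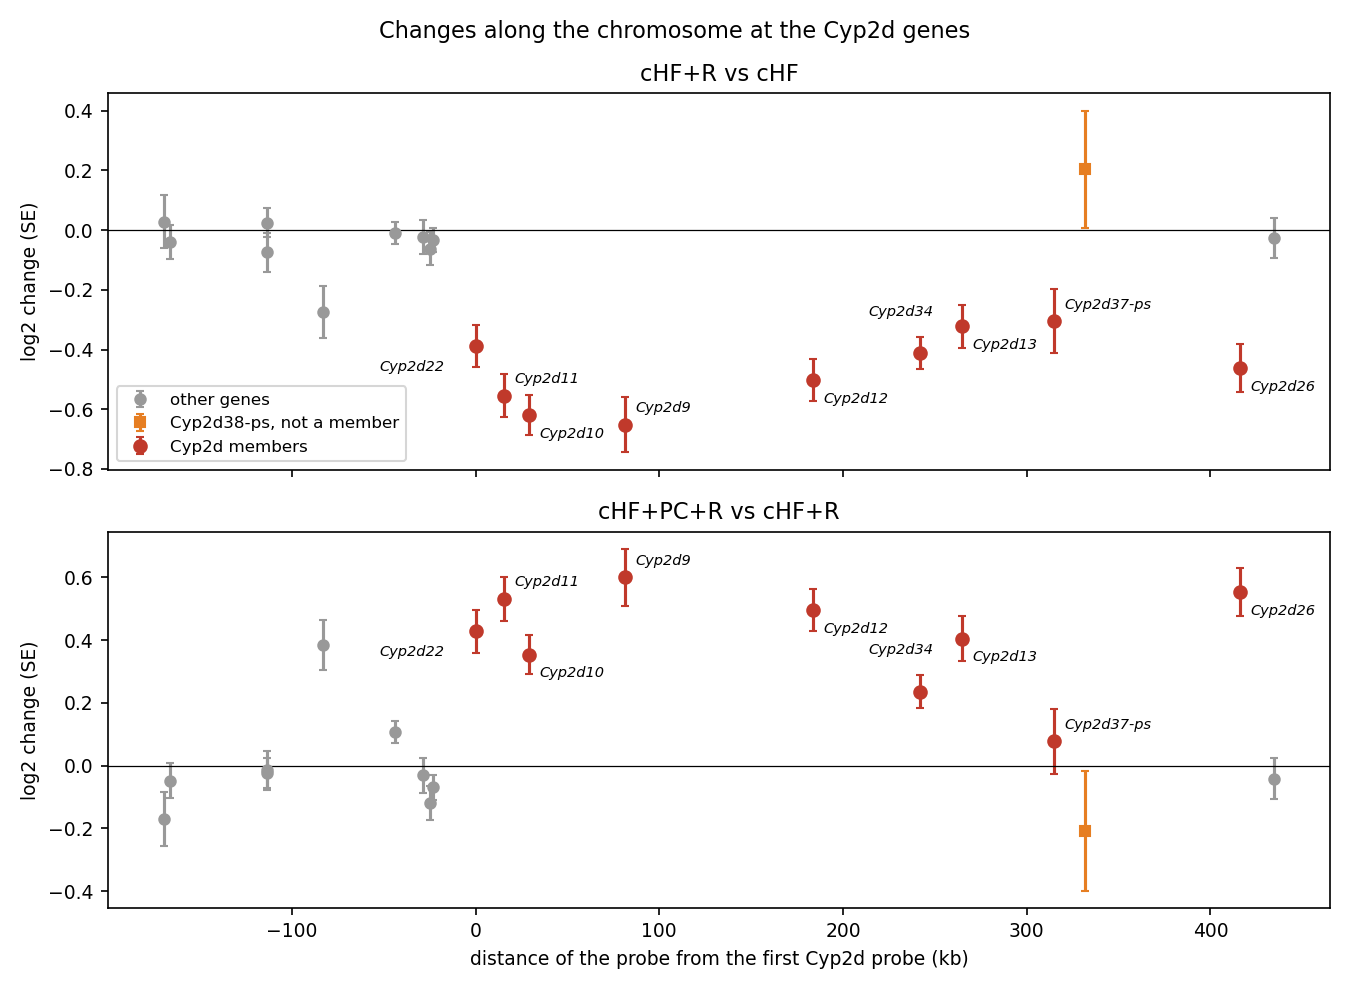
Log2 change with its SE (y) against the distance of the probe from the first Cyp2d probe in kb (x), in cHF+R against cHF (top) and cHF+PC+R against cHF+R (bottom). The 9 member Cyp2d genes (red) are all below 0 at the top and all above 0 at the bottom, the further copy Cyp2d38-ps (orange) has the opposite signs, and the genes outside the family (grey) lie on both sides of 0, with Septin3 farthest from it at -0.27 and 0.38.

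Markers of cell types were read beside the Cyp2d result. All 10 tested hepatocyte markers, which include secreted plasma proteins, were well above background on all 29 arrays. In cHF+R against cHF 1 of the 10 fell (Serpina1a, -0.35) and none rose, and their median change was -0.19. Their mean level per liver ran from 0.14 to 0.33 in cHF (median 0.27) and from -0.07 to 0.56 in cHF+R (median 0.10). Of 5 fat cell markers on the array 2 were tested, and both rose with rosiglitazone: Cfd, which encodes adipsin, by 4.51 and Retn, which encodes resistin, by 0.65. The mean of these 2 ran from -2.49 to -1.36 in cHF and from -0.72 to 1.92 in cHF+R. The other 3, Adipoq, Plin1 and Lep, were well above background on 2 arrays each. No marker of Kupffer cells, stellate cells, endothelium or lymphocytes passed in that comparison. Over all genes 2.02% rose and 1.09% fell in cHF+R against cHF. In cHF+PC+R against cHF+R, Cfd fell by 3.01, Lrat, a stellate cell gene, by 0.57 and Cdh5, an endothelial cadherin, by 0.15, each the 1 gene of its list that passed, and 1 of the 10 hepatocyte markers rose (Tdo2, 0.21). The mean of the 2 fat cell markers ran from -2.71 to 2.01 in cHF+PC+R. Of 13 tested genes made mainly around the portal tract 3 rose there (Cps1 by 0.56 and Hal by 0.48 on the log2 scale, and Pck1 2.14-fold), and of 14 made around the central vein 1 rose (Oat, 0.67). Over all genes 3.3% rose and 3.83% fell in that comparison. The part of these markers in the Cyp2d differences was not tested. Of 15 male-biased genes outside the P450 family, Mup3, a major urinary protein, fell with rosiglitazone (-0.44). Serpina1a and Mup3 belong to families of near-identical copies, so their probes may read other copies too.

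The Cyp2d calls depended on how the arrays were brought to one scale. The calls of both comparisons held with slide as a block and in the authors' deposited value table, where the 8 changes with rosiglitazone ran from -0.71 to -0.43, and without any 1 array. With each array only centred on its median, none passed: the 8 changes were -0.40 to -0.08 (adjusted p 0.673 to 0.885), in a setting where the median of all genes moved from 0.01 to 0.15; relative to that median the changes were -0.55 to -0.23. With scaling between arrays after loess they were -0.83 to -0.38 (adjusted p 0.319 to 0.594). Between cHF+PC+R and cHF+R they were 0.03 to 0.39 with median centring (adjusted p 0.983 to 0.999) and 0.25 to 0.84 with scaling (adjusted p 0.213 to 0.593). The share of higher calls among all genes called in cHF+R against cHF was 65.0%, and it was 39.2% in the deposited table and 93.8% with median centring.

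Enzymes of the Cyp4 group hydroxylate fatty acids and eicosanoids at the far end of the chain, and the Cyp4f enzymes are known for inactivating leukotriene B4. Of 10 tested Cyp4 members, the omega-3 phospholipids raised 2, rosiglitazone raised 1 and the combination raised 3 and lowered 1 against cHF, where 1.81%, 2.02%, 4.77% and 4.76% of all genes passed in those directions. The 4 genes that changed against cHF lie near one another on chromosome 17 (probes at 32665243 for Cyp4f17, 32688210 for Cyp4f16, 32840088 for Cyp4f15 and 33042214 for Cyp4f14, mm9), and they did not change alike.

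Cyp4f15 followed the omega-3 diets. It ranged from -0.43 to -0.26 in cHF (median -0.36) and from -0.50 to -0.41 in cHF+R (median -0.46). It ranged from 0.02 to 0.38 in cHF+PC (median 0.16) and from -0.16 to 0.35 in cHF+PC+R (median 0.01). All 16 livers of the omega-3 groups were above all 13 of the groups without them. How many of all genes split the pooled groups in this way was not counted. The gene was 1.43-fold higher in cHF+PC than in cHF (0.52 ± 0.0613, adjusted p = 7.49e-06, 7 of 7 slides), and higher in cHF+PC+R than in cHF (0.42 ± 0.0613, adjusted p = 5.36e-05) and in cHF+R (0.53 ± 0.064, adjusted p = 4.36e-06).

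Cyp4f17 had the same order. Its medians were -0.23 in cHF (-0.40 to -0.10), -0.33 in cHF+R (-0.46 to -0.17), 0.10 in cHF+PC (-0.05 to 0.15) and 0.02 in cHF+PC+R (-0.25 to 0.14). The cHF+PC livers were all above the cHF livers, while those of cHF+PC+R overlapped them. The changes were 0.33 ± 0.0572 in cHF+PC (adjusted p = 0.0012) and 0.25 ± 0.0572 in cHF+PC+R (adjusted p = 0.00603) against cHF, and 0.32 ± 0.0597 in cHF+PC+R against cHF+R (adjusted p = 0.00124).

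Cyp4f16 followed rosiglitazone. Its median was -0.22 in cHF (-0.36 to -0.13) and 0.09 in cHF+R (-0.01 to 0.23). With the phospholipids it was -0.07 alone (-0.24 to 0.16) and 0.02 in the combination (-0.11 to 0.30). The cHF livers were below all livers of both rosiglitazone groups, and overlapped those of cHF+PC. The cHF+PC and cHF+PC+R livers also overlapped, and the gene did not pass between those groups. It rose by 0.32 ± 0.0588 in cHF+R (adjusted p = 0.0012) and by 0.25 ± 0.0547 in cHF+PC+R (adjusted p = 0.00356).

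Cyp4f14, which in mouse liver hydroxylates leukotriene B4, was highest in the control group. Only 22 of 29 arrays gave a value. The median was 0.21 in 4 cHF livers (0.12 to 0.40), -0.04 in 5 cHF+R livers (-0.28 to 0.11), -0.06 in 6 cHF+PC livers (-0.43 to 0.16) and -0.18 in 7 cHF+PC+R livers (-0.53 to -0.00). It passed in the combination against cHF (-0.47 ± 0.106, adjusted p = 0.00767, lower on 3 of 3 shared slides) and not with rosiglitazone (-0.31, adjusted p = 0.159), although those livers did not overlap either.

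Smaller differences were seen between cHF+PC+R and cHF+R in Cyp4f13 (0.21 ± 0.0587, adjusted p = 0.0247) and Cyp4f18 (-0.19 ± 0.0559, adjusted p = 0.0313). Leaving out 1 array ended the call for Cyp4f13 in 3 of 29 cases (cHF+R 1 or 3, cHF+PC+R 4; adjusted p up to 0.0954) and for Cyp4f18 in 7 (adjusted p up to 0.0905). Fitting only those groups also ended the call for Cyp4f13. The other probe of Cyp4f18 gave -0.13 (adjusted p = 0.192). Cyp4b1, Cyp4f39, Cyp4f40 and Cyp4v3, which acts on fatty acids, did not pass in any comparison. Cyp4v3 differed by 0.29 with the phospholipids and Cyp4b1 by 0.04.

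Cyp2e1, which oxidises ethanol, acetone and paracetamol and is among the most abundant liver P450 enzymes, was higher in the combination than in either group without omega-3 phospholipids. Its median was 0.04 in 6 cHF livers (-0.05 to 0.42), 0.06 in cHF+R (-0.31 to 0.29), 0.65 in cHF+PC (0.05 to 0.97) and 0.72 in cHF+PC+R (0.07 to 1.34). The lowest liver of each omega-3 group lay near the control median, and every other liver of these groups was at 0.41 or above. These lowest livers, and the highest cHF liver, were all on slide 2. The combination was 1.51-fold above cHF (0.59 ± 0.142, adjusted p = 0.00821, 5 of 6 slides) and 1.58-fold above cHF+R (0.66 ± 0.142, adjusted p = 0.00481). The phospholipids alone gave 0.48 ± 0.142, which did not pass (adjusted p = 0.0521), while the second probe of the gene passed (0.55, adjusted p = 0.0145), as did the deposited value table (0.50, adjusted p = 0.026).

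**Figure D4:**
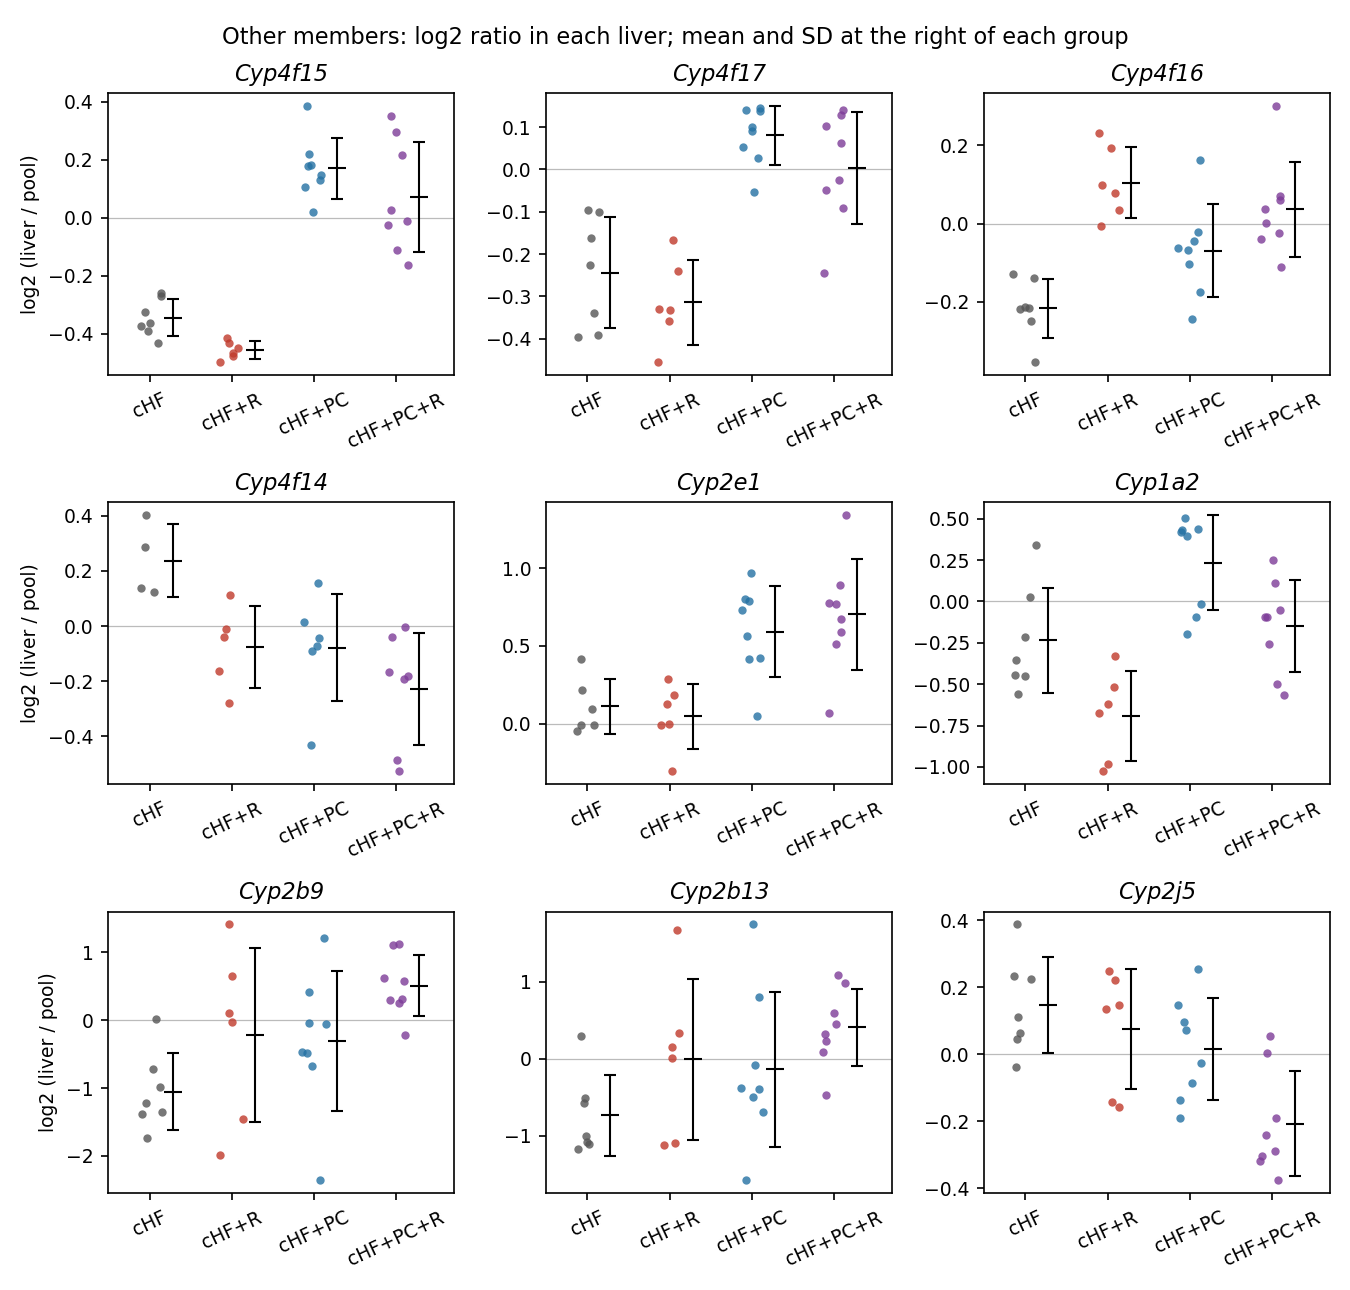
Log2 ratio of each liver to the pool (points) for 9 members outside the Cyp2d group, with the group mean and SD beside each group. Cyp4f15 separates the omega-3 groups from the others, Cyp4f16 separates cHF from both rosiglitazone groups, and Cyp2b9 and Cyp2b13 have the widest scatter.

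Cyp1a2, which oxidises caffeine and aromatic amines and is induced through the aryl hydrocarbon receptor, passed in 1 comparison. It lay between -0.56 and 0.34 in cHF (median -0.35), -1.03 and -0.33 in cHF+R (median -0.65), -0.20 and 0.50 in cHF+PC (median 0.41) and -0.57 and 0.25 in cHF+PC+R (median -0.09). The groups overlapped widely except cHF+R and cHF+PC. The difference between cHF+PC+R and cHF+R was 0.54 ± 0.147 (adjusted p = 0.0223, higher on 5 of 6 slides), and it was lost without cHF+R liver 1 or 3 (adjusted p up to 0.0738). The phospholipids alone gave 0.47 (adjusted p = 0.055) and rosiglitazone alone -0.46 (adjusted p = 0.104). Cyp1a1, the classical target of that receptor, differed by -0.14 to 0.21 across these comparisons and did not pass. Its probe was well above background on only 18 arrays: 4 in cHF, 3 in cHF+R, 5 in cHF+PC and 6 in cHF+PC+R. With signal this close to background, the lack of a Cyp1a1 call carries little weight, and activity of the receptor was not tested. A list of receptors, hepatocyte factors and clock genes tied to P450 regulation, which also holds the enzyme Nqo1, had 17 tested genes. None passed with the phospholipids or with rosiglitazone alone, where 3.93% and 3.12% of all genes did. In the combination against cHF 1 of the 17 rose, Nqo1, a quinone reductase (0.48), where 4.77% of all genes rose. In the combination against cHF+R 1 rose, Tef, a clock output factor (0.83), where 3.3% of all genes did. With 17 genes, 1 call is near these shares. Ahr itself stood at -0.32 with rosiglitazone (adjusted p = 0.321) and Hnf4a at -0.02.

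Of the Cyp2b genes, Cyp2b9 and Cyp2b13 are made mainly by female liver. Cyp2b9 ranged from -1.74 to 0.01 in cHF (median -1.23), from -1.98 to 1.41 in cHF+R (median 0.04) and from -2.36 to 1.21 in cHF+PC (median -0.26). The cHF+PC+R livers, from -0.22 to 1.12 (median 0.45), were less scattered than the groups with 1 supplement, and scattered about as much as cHF. The SD was 0.45, against 0.57 in cHF, 1.28 in cHF+R and 1.02 in cHF+PC, and these differences were not tested. Cyp2b9 was 2.95-fold higher in the combination than in cHF (1.56 ± 0.42, adjusted p = 0.0171), on 7 of 7 slides. Cyp2b13 differed by 1.14 ± 0.386 and did not pass (adjusted p = 0.0573), but passed with slide as a block (adjusted p = 0.0495). Beside them, 4 of 11 tested female-biased genes outside the P450 family rose in the combination, where 4.77% of all genes rose and 4.76% fell. The 4 were Acot3 (1.43), Abcd2 (0.55), Atp6v0d2 (0.27) and Fmo2 (0.22). Atp6v0d2 was well above background on 14 arrays, with 1 in cHF and 2 in cHF+R. It passed the filter only through the omega-3 groups, so its rise carries no weight here. Sult2a1, Sult2a2, Sult3a1, A1bg and Sult1e1 were too dim to test. Abcd2, a peroxisomal fatty acid transporter, also rose with rosiglitazone alone (0.54), where 2.02% of all genes rose. Of 15 male-biased genes, Mup3 (-0.53) and Slco1a1, an organic anion transporter (-0.65), fell in the combination. Elovl3, a fatty acid elongase and also 1 of the 15, fell with the phospholipids alone (-1.16), where 2.11% of all genes fell. The part of these genes in the Cyp2b9 result was not tested.

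The Cyp2j enzymes convert arachidonic acid and omega-3 fatty acids to epoxides. Of 6 tested, Cyp2j5 alone changed. It ranged from -0.04 to 0.39 in cHF (median 0.11), -0.16 to 0.25 in cHF+R (median 0.14), -0.19 to 0.26 in cHF+PC (median 0.02) and -0.38 to 0.05 in cHF+PC+R (median -0.26). It fell by 0.35 on the log2 scale in the combination against cHF (SE 0.0786, adjusted p = 0.00438, lower on 7 of 7 slides). Against cHF+R it fell by 0.28 (adjusted p = 0.0336), a call lost when any of 8 arrays was left out (adjusted p up to 0.104), in the deposited table, with the scanner software's processed signals and when only those groups were fitted. Cyp2j6 lay between -0.13 and 0.05 in every comparison of groups and did not pass. Among Cyp2f2, which activates naphthalene, Cyp2g1, Cyp2s1, Cyp2t4 and Cyp2w1, none passed, and Cyp2f2 differed by -0.19 with rosiglitazone and 0.19 with the phospholipids.

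Among steroid enzymes 2 of 6 were tested. Cyp17a1, the steroid 17-hydroxylase, had medians of 0.05 in cHF (-0.11 to 0.15), 0.22 in cHF+R (0.13 to 0.38), 0.01 in cHF+PC (-0.13 to 0.04) and -0.09 in cHF+PC+R (-0.14 to 0.26). It was lower in the combination than in cHF+R (-0.25 ± 0.059, adjusted p = 0.00952), on 4 of 6 slides, and this call was lost in the deposited table and when only those groups were fitted. The difference with rosiglitazone alone was 0.20 (adjusted p = 0.0677). Cyp21a1, the 21-hydroxylase, did not pass. Cyp46a1, which hydroxylates cholesterol and is known from brain, was lower in the combination than in cHF+R (-0.27 ± 0.069, adjusted p = 0.0139), with medians of -0.02 and 0.24, a call that was also lost when only those groups were fitted. Cyp39a1, which acts on the product of Cyp46a1, differed by -0.01 there and did not pass in any comparison.

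Of the vitamin D and retinoid enzymes none passed. Cyp2r1, which makes 25-hydroxyvitamin D, differed by -0.27 with the phospholipids (adjusted p = 0.0814). Cyp26a1 and Cyp26b1 break down retinoic acid, and differed by -0.40 and 0.54 with rosiglitazone with wide intervals. In the same pathway 23 genes were tested. The genes that passed with rosiglitazone included Rdh9 (0.98) and Rdh16 (0.77), which rose, and Rdh7 (-0.29), which fell. Over all genes 2.02% rose and 1.09% fell with rosiglitazone. The phospholipids raised 2 of the 23, Rxra and Rxrb, and lowered 2, Rdh11 (-0.89) and Lrat (-0.49). The shares of all genes with the phospholipids were 1.81% higher and 2.11% lower. Of the members with unclear roles, Cyp2u1, which can hydroxylate long-chain fatty acids, was higher in cHF+PC+R than in cHF+R (0.34 ± 0.0997, adjusted p = 0.0327), but its other probe gave 0.01, and the call was lost with slide as a block (adjusted p = 0.0545) without any of 7 arrays and when only those groups were fitted. Cyp20a1 differed by 0.59 with the phospholipids and did not pass (adjusted p = 0.0719).

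No member passed between cHF+PC+R and cHF+PC, where 0.133% of all genes did. At an unadjusted p under 0.05 (limma) there were 12 of the 44 members, against 1664 of the 19509 genes. In the deposited value table the members that fell were Cyp2d10 (-0.30, adjusted p = 0.0402) and Cyp2d12 (-0.26, adjusted p = 0.0411). There 62 of 18578 genes were called, 75.8% of them higher.

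Some partners of the P450 enzymes changed, in both directions. Over all genes 1.81% rose and 2.11% fell with the phospholipids, and 2.02% rose and 1.09% fell with rosiglitazone. In the combination against cHF 4.77% rose and 4.76% fell. Of 14 tested electron donors and membrane partners, the phospholipids raised 3: Por, the oxidoreductase, by 0.78, Cyb5a, cytochrome b5, by 0.33 and Pgrmc1, a haem-binding membrane protein, by 0.27. They lowered Cyb5b (-0.44) and Cyb5r3, a cytochrome b5 reductase (-0.48). The combination raised the same 3 against cHF, Por by 2.10-fold (1.07), Cyb5a by 0.42 and Pgrmc1 by 0.25, and lowered Cyb5r3 (-0.39). Por stood at 0.40 with rosiglitazone and did not pass (adjusted p = 0.38), where Nenf rose (0.36). Of 15 genes of haem synthesis and breakdown, 1 rose with the phospholipids, Fech, which inserts the iron (0.20), and 1 fell with rosiglitazone, Alas2, the erythroid first enzyme (-0.42). In the combination against cHF 2 rose, Fech (0.27) and Slc25a38, a mitochondrial glycine carrier (0.16), and 2 fell, Alas2 (-0.46) and Blvra, a biliverdin reductase (-0.16). Alas1, the first enzyme in liver, stood at 0.20 with the phospholipids and 0.05 with rosiglitazone and did not pass. In the combination against cHF+R, 3 of the 14 electron donors and membrane partners rose and 4 fell. Of the 15 haem genes 3 rose and none fell there. The shares of all genes in that comparison were 3.3% higher and 3.83% lower.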

How the data were processed

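Whole-liver RNA (1000 ng per liver) was hybridised to 29 two-colour arrays on 8 slides, each liver in Cy5 against the Cy3 pool, with no dye swap, so dye bias is common to all ratios. Per the submitters' processing notes the scans were read with Agilent Feature Extraction 10.5.1.1, and per the file headers the deposited scanner files hold spot intensity values with probe positions in mm9. Per the labels' protocols, 2 arrays were set aside by the authors before normalization. The authors' deposited value table holds log2 values of 25806 probes (median 9.03); each column correlated best with the log2 Cy5 signal of its own array (r from 0.990 to 0.999), and the sources used here do not name its normalization, so it served as an alternative only.

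Intensities were background-corrected (normexp, offset 50) and normalized by loess within each array in limma 3.58.1 (R 4.3.3). Control spots and outlier flags were left out, and repeated spots were averaged per probe. The filter asked for 6 or more arrays well above background in the Cy5 channel and a value on 20 or more (23981 of 39429 probes passed), and the brightest probe stood for its gene. Probes were named by accession where the RefSeq gene table held it (26412 probes, 65 of the 68 probes here), otherwise by symbol or synonym, or as in the file. Group means were fitted over all 4 groups with lmFit and eBayes, two-sided, with Benjamini-Hochberg adjustment over 19509 genes and a threshold of 0.05. Intervals are 95%, and errors are SE or SD as stated. The width of an interval or SE depends on the spread of the gene and on how many arrays there are. The labels call the samples individual and do not say how the mice were housed, so p-values measure the spread between these samples. The procedure was tested on simulated data.

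The genes, the lists of partner and marker genes and the naming rule were chosen with earlier results of these data known. By that rule the text names each member past the threshold in any comparison and a short set of the better-known members, and up to 4 changed genes of a list. Replicate numbers in the labels were not used to pair the samples in the main fit. Of 40 pairs with the same number, 14 had deviations correlated above 0.1 (mean r 0.0433). Among 274 pairs with other numbers it was 57 (mean r -0.00516). Pairs on the same slide gave 12 of 39 (mean r 0.0497), and pairs on other slides 59 of 275 (mean r -0.0059). Slide, the replicate number, background correction, normalization, the filter, the choice of probe, the fitted groups and each array were varied as alternatives. One gene of these lists is not reported here.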

Additional observations from a re-analysis of the deposited data

Results flagged for a closer look

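For the 32 tested members that the naming rule selects, 128 sets of values were checked (a member in 1 diet group, 4 to 8 livers), and 8 had 1 liver set apart from the rest by Dixon's criterion, where chance gives about 1 in 20. cHF+PC liver 2 was lowest of its group for Cyp1a1 (-0.34, the next at -0.03) and for Cyp26b1 (-1.53, the next at -0.41). cHF liver 3 was lowest for Cyp26a1 (-0.77, the next at 0.00) and for Cyp39a1 (-0.94, the next at -0.28). cHF+PC+R liver 2 was lowest for Cyp46a1 (-0.40, the next at -0.14) and highest for Cyp4f16 (0.30, the next at 0.07). cHF+R liver 6 was highest for Cyp20a1 (0.68, the next at -0.08), and cHF+R liver 1 was lowest for Cyp39a1 (-0.69, the next at -0.19). None of the 8 concerns a Cyp2d gene. Of these genes Cyp46a1 and Cyp4f16 passed a test in the report, and neither call was lost when any 1 array was left out.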

How the results depend on the processing

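The number of members called was most open to the processing with the phospholipids alone, where 2 passed. It was 7 without background subtraction, 5 with the scanner software's processed signals, 10 in the deposited table, 5 with probes above background on all arrays, 5 with only the compared groups fitted, 0 with median centring and 0 with loess then scaling. Leaving out 1 array gave 2 to 6: 5 without cHF 1, 6 without cHF 2, 4 without cHF+R 6, 5 without cHF+PC 1, 6 without cHF+PC 2, 5 without cHF+PC 6, 4 without cHF+PC+R 2 and 4 without cHF+PC+R 4. In cHF+R against cHF the 9 calls became 0 with median centring and 1 with scaling, and 9 to 10 with 1 array left out. In cHF+PC+R against cHF the 9 became 0 and 1, and 8 to 11. In cHF+PC+R against cHF+R the 18 became 0 and 0, and 13 to 21. Between cHF+PC+R and cHF+PC, and for the interaction, 0 stayed 0 to 0 with 1 array left out, and the former count was 2 in the deposited table.

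Of 38 calls of a gene in a comparison, none changed direction under any setting run. Median centring ended 38 and scaling 36, with the 2 calls of Cyp4f16 kept; fitting only the compared groups ended 5, averaging a gene's probes 3, the deposited values 2, the processed signals 1 and a slide block 1. Over all single arrays left out, 29 calls ended and 1073 held. The cause was not tested. The replicate block, by numbers not used as pairs in the main fit, gave 3, 9, 10, 18, 0 and 0 calls and ended 2 of the 38. Over all genes, calls fell from 766 to 10 with median centring and 253 with scaling for the phospholipids, from 608 to 81 and 70 for rosiglitazone, from 1858 to 82 and 144 for the combination against cHF, and from 1391 to 53 and 74 for the combination against cHF+R. The share of higher calls in the last was 46.3%, and 58.0% in the deposited table, 13.2% with median centring and 28.4% with scaling; for the combination against cHF it was 50.1%, and 30.8% in the deposited table. Signal near background limits the 13 dim members, for which no level is given.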
